A study of Mus musculus with 5 samples.

Results

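The 10 genes described here carry and read out the canonical Wnt signal: the co-receptors Lrp5 and Lrp6, the coactivator Ctnnb1 (β-catenin), the scaffold Apc of the complex that degrades it, the DNA-binding factors Lef1, Tcf7, Tcf7l1 and Tcf7l2, and the feedback targets Axin2 and Sp5. They were chosen by symbol, 10 of the 23284 genes in the count tables, and all 10 passed the filter on low counts that left 12703 genes for testing. The polyA RNA sequenced came from neural tubes, the tissue that forms the brain and spinal cord, of mouse embryos. The embryos had the genotypes EpoR -/- (EpoR-null, 2 samples), EpoR +/+ (wild type, 2 samples) and EpoR +/- (heterozygote, 1 sample), where EpoR encodes the erythropoietin receptor. The wild type samples and the heterozygote were the 3 littermate controls, and the labels date all 5 samples to E8.5, while the study's text gives a slightly later age. The deletion was constitutive, so the receptor was missing from every tissue of the EpoR-null embryos and not from the neural tube alone. Each sample is 1 library, and nothing in the labels says whether it held 1 neural tube or several.

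In canonical Wnt signalling, a Wnt ligand brings a Frizzled receptor together with LRP5 or LRP6. This stops a complex of AXIN, APC, GSK3 and CK1 from marking β-catenin for destruction. β-Catenin then enters the nucleus, where TCF/LEF proteins bound to DNA turn from repressors into activators of targets such as Axin2 and Sp5. In the neural tube the pathway is known for dorsal patterning, for progenitor proliferation and for maintaining the caudal end of the growing axis.

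Reads counted on genes ranged from 19316126 to 41169218 per sample, so that 3 reads equalled 0.0715 to 0.152 CPM (read counts scaled to library size, here with TMM factors). Epor, the deleted gene, had 2.36 and 1.62 CPM in wild type samples 1 and 2 (57 and 68 reads) and 0.354 and 0.669 CPM in EpoR-null samples 1 and 2 (7 and 19 reads). Against all 3 controls Epor itself passed no threshold (log2 fold change -1.51, standard error 0.76, FDR 0.280, edgeR exact test). The library labelled heterozygote had 0.476 CPM (11 reads, exact 95% Poisson interval 0.237 to 0.851, counting error only), within the EpoR-null range and below both wild type samples. The same library held little blood or vessel RNA: 7 primitive erythroid markers, led by Hbb-y, summed to 44.2 CPM there, against 603 to 1092 CPM in wild type and 966 to 1693 CPM in EpoR-null samples. The 6 endothelial markers, led by Kdr, summed to 11.9 CPM there against 125 to 275 CPM in the other 4 libraries. The part of these cells in its Epor level was not tested, and the results for Apc, Lrp6, Axin2 and the wider Wnt list are given with and without it. All 8 neural tube markers, led by Nes, were expressed and summed to 1969 to 2202 CPM in controls and 1625 to 1895 CPM in EpoR-null samples. One of them, Msi1, which encodes an RNA-binding protein of neural progenitors, was lower in the EpoR-null samples (174 and 181 CPM) than in the controls (240 to 264 CPM) past the thresholds defined below, with a log2 fold change of -0.51 and an FDR of 0.00712 (edgeR exact test). The quasi-likelihood F-test of edgeR, used as an alternative below, called 0 genes, so Msi1 was not called there. The other neural tube markers passed no threshold, with log2 fold changes from -0.29 to 0.19 in the exact test. In bulk tissue, fewer cells of a type and less RNA per cell cannot be told apart.

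Of the 10 genes, Apc and Lrp6 were lower in the EpoR-null neural tubes past both thresholds of the study, p below 0.001 and FDR below 0.05 in the exact test of edgeR, and 0 were higher. At an unadjusted p below 0.05 in the same test the counts were 3 lower, with Axin2, and 0 higher, beside 2515 of the 12703 tested genes in either direction. Among all tested genes, 4.77% passed the thresholds, 3.84% lower and 0.929% higher. With the FDR threshold alone the count was again 2 of the 10 genes, beside 7.31% of all tested genes, 5.49% lower and 1.81% higher. The median log2 fold change of the 10 genes was -0.15, and that of all tested genes was 0.06. The plot of CPM by sample shows that both EpoR-null samples lay outside the range of the controls for 4 genes, Apc, Lrp6, Axin2 and Ctnnb1, and below it each time. Over all tested genes, 43.3% had groups that did not overlap, 22.1% with the EpoR-null samples below and 21.2% with them above.

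**Figure D1:**
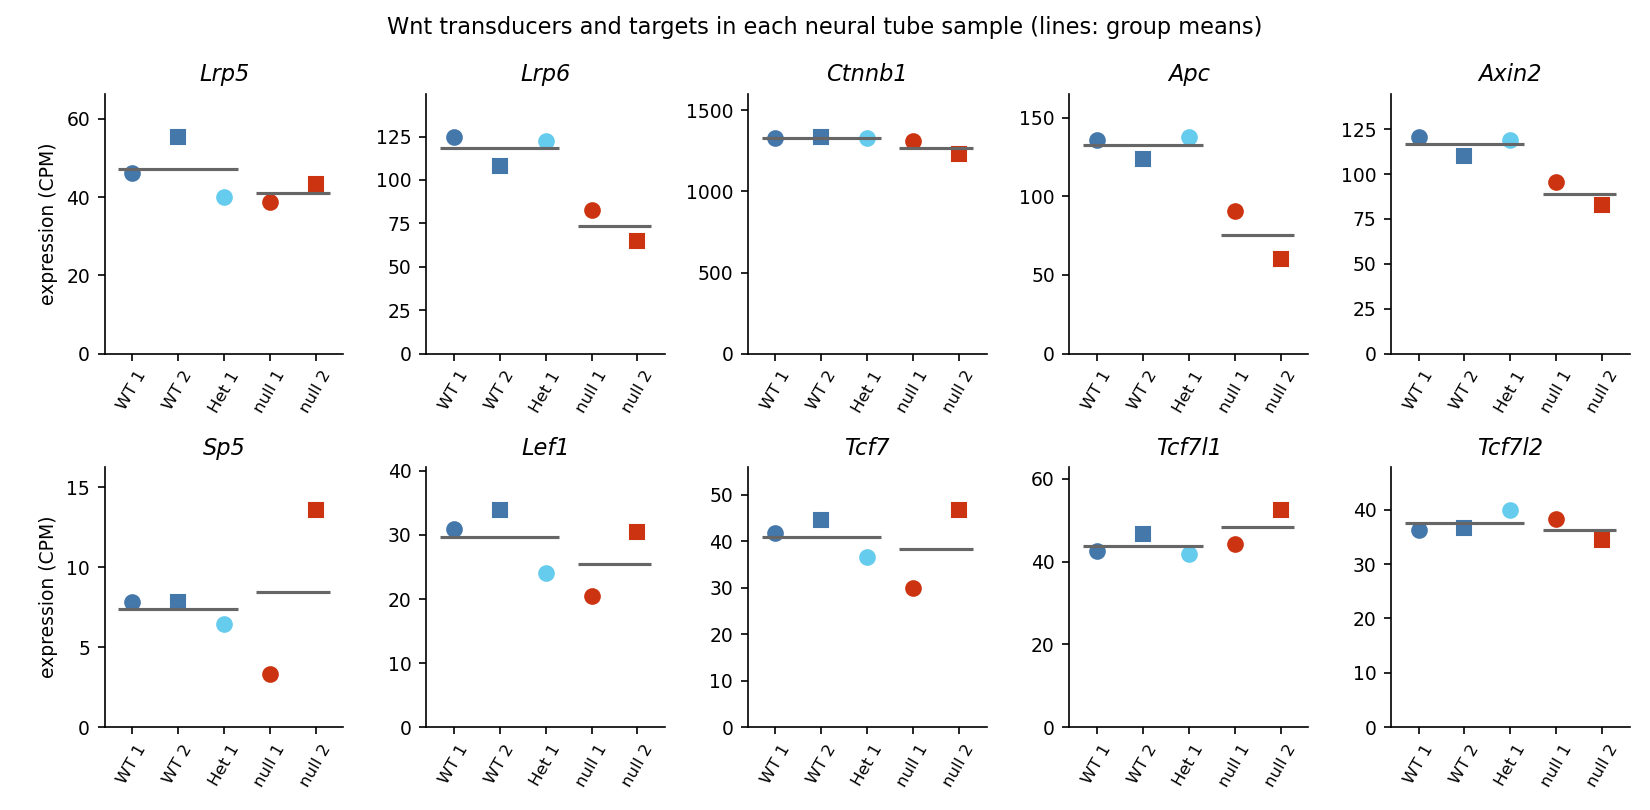
Expression in CPM (linear axes from 0) of the 10 genes in each sample, with wild type (WT) in dark blue, the heterozygote (Het) in light blue and EpoR-null in red; circles are replicate 1, squares replicate 2, and lines the group means. Apc and Lrp6 are lower in both EpoR-null samples, and Sp5 is lowest in EpoR-null sample 1 and highest in EpoR-null sample 2.

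Lrp6, on chromosome 6 of GRCm38 from 134446476 to 134566965 (minus strand), encodes the co-receptor whose phosphorylated tail recruits AXIN. It had 125 and 108 CPM in wild type samples 1 and 2, 122 CPM in the library labelled heterozygote, and 82.5 and 64.9 CPM in EpoR-null samples 1 and 2. Each EpoR-null value was thus lower than all 3 control values. Lrp6 averaged 118 CPM in the controls (SD 9.08, n = 3) and 73.7 CPM in the EpoR-null samples (SD 12.4, n = 2). On the log2 scale it fell by 0.68 ± 0.17 (standard error), with an FDR of 0.00318 by the edgeR exact test. Within replicate number 1, against the mean of wild type sample 1 and the library labelled heterozygote, the log2 difference was -0.58. Within number 2, against wild type sample 2 alone, it was -0.73. Without the library labelled heterozygote the log2 fold change was -0.66 with an FDR of 0.0856 in the exact test. Without wild type sample 1 it was -0.65 with an FDR of 0.154, so that either removal ended the call. Over all genes the calls fell from 606 to 253 and 115 in these fits, in that order. Without wild type sample 2 Lrp6 kept its call (-0.75, FDR 0.0160), with 294 calls over all genes.

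Lrp5, the paralogous co-receptor (chromosome 19, 3584828 to 3686564, minus strand), gave 46.2, 55.4 and 39.9 CPM in the controls, in the same order, and 38.8 and 43.4 CPM in the EpoR-null samples. The groups overlapped, and the log2 fold change of -0.20 ± 0.20 (standard error; FDR 0.648, edgeR exact test) did not exceed the spread between samples. Its fold change, with a 95% interval from 0.661 to 1.15 times the controls, does not show equal expression. Per kilobase of the longest annotated transcript, Lrp6 was 2.57, 1.85 and 2.91 times as abundant as Lrp5 in the controls and 2.02 and 1.42 times in the EpoR-null samples. Wild type sample 2 lay between the EpoR-null samples in this ratio.

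Apc (chromosome 18, 34220924 to 34322552, plus strand) encodes the scaffold that holds β-catenin in the destruction complex. Its level was 136 and 124 CPM in wild type samples 1 and 2, 138 CPM in the library labelled heterozygote, and 90.5 and 60.1 CPM in the EpoR-null samples. The controls lay close together, and both EpoR-null samples were below all of them, number 2 farther than number 1. Apc averaged 132 CPM in the controls (SD 7.45, n = 3) and 75.3 CPM in the EpoR-null samples (SD 21.5, n = 2). On the log2 scale it fell by 0.82 ± 0.21 (standard error), with an FDR of 0.00586 by the edgeR exact test. The log2 difference, taken as for Lrp6, was -0.59 within replicate number 1 and -1.04 within number 2. The call was lost without the library labelled heterozygote (-0.79, FDR 0.0960 in the exact test) and without wild type sample 1 (-0.80, FDR 0.147), as for Lrp6. It was kept without wild type sample 2 (-0.86, FDR 0.0429).

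Ctnnb1, which encodes β-catenin itself (chromosome 9, 120929216 to 120960507, plus strand), had the highest CPM of the 10 genes. The controls had 1327, 1335 and 1328 CPM and the EpoR-null samples 1307 and 1231 CPM. Although both EpoR-null samples were below the controls, the log2 fold change was -0.07 ± 0.13 (standard error; FDR 0.833, edgeR exact test), with a 95% interval of 0.796 to 1.14 times the controls. In the annotation used for positions, Ulk4 on the opposite strand covers 14.6% of the exon bases of Ctnnb1, and the strand setting of the counting is not given in the sources used here.

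Differences between the groups moved with transcript length. Across the 11525 tested genes with an annotated transcript, log2 fold change and length correlated at a Spearman's rho of -0.63, a description across genes, which share libraries and are not independent replicates. Apc and Lrp6 have the longest transcripts of the 10 genes, 12.8 and 9.37 kb, followed by Lrp5 at 8.89 kb. Of the 472 tested genes with a transcript at least as long as that of Lrp5, 123 (26.1%) were lower past both thresholds and 0 were higher, and their median log2 fold change was -0.55. Of the 11053 genes with a shorter transcript, 2.94% were lower. Beside those long genes, Apc and Lrp6 lay below the median and Lrp5 above it. After offsets that removed the trend of each sample on length and GC content, the log2 fold change was -0.24 for Apc (FDR 0.776) and -0.22 for Lrp6 (FDR 0.894) by edgeR's likelihood-ratio test. With these offsets 0 of the 10 genes passed either threshold, and 1, Axin2, had an unadjusted p under 0.05, beside 868 of the 11525 genes. In the same test without offsets both genes passed both thresholds. The quasi-likelihood F-test of edgeR without offsets gave FDR values of 0.0930 for Apc and 0.0767 for Lrp6. A trend on length and the genotype cannot be told apart in these 5 samples, since the offsets remove whatever long genes have in common.

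**Figure D2:**
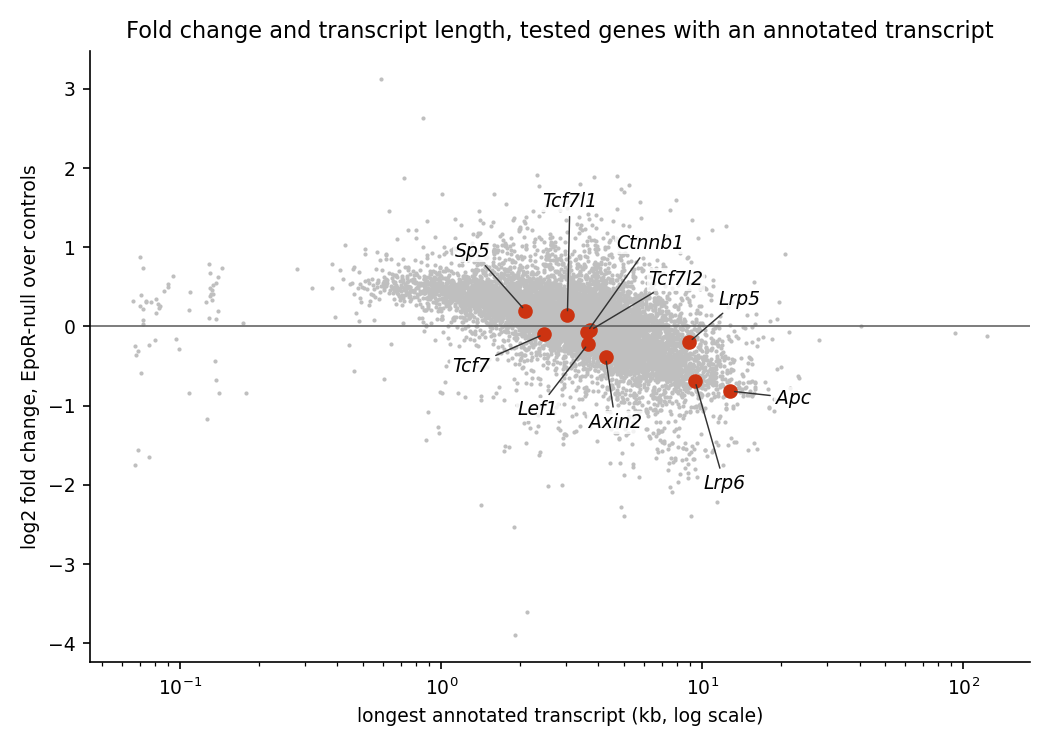
Log2 fold change of EpoR-null over controls (vertical axis) against the longest annotated transcript in kb (horizontal log axis) for the 11525 tested genes with a transcript in the annotation (grey points), with the 10 Wnt genes in red. Longer transcripts lie lower, and Lrp6 and Apc lie in the long, lower part of the cloud, with Lrp5 above them.

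**Figure D3:**
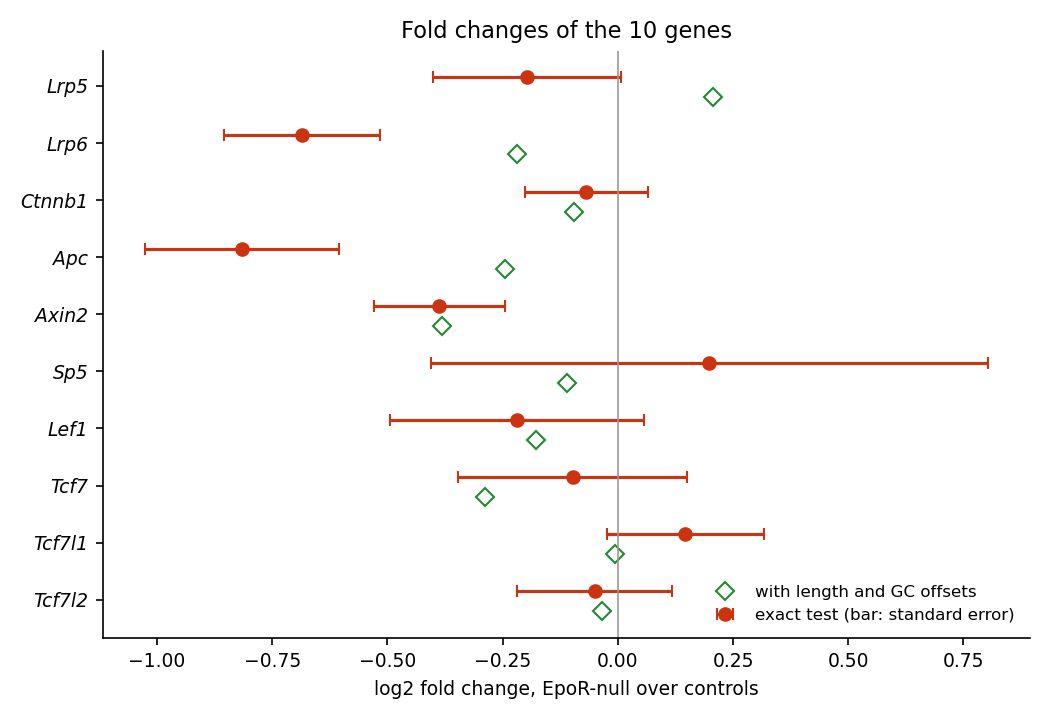
Log2 fold change of EpoR-null over controls for the 10 genes in the exact test of edgeR (red, bars show 1 standard error) and in the likelihood-ratio test with length and GC offsets (open green diamonds). With offsets Apc moves from -0.82 to -0.24 and Lrp6 from -0.68 to -0.22, while Axin2 stays at -0.38.

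Axin2 and Sp5 are used as readouts of β-catenin activity, Axin2 as a negative feedback component of the destruction complex and Sp5 as a zinc finger factor that dampens other Wnt targets. The 250 bases before their annotated starts are shown because these genes are the transcriptional readouts among the 10, and capitals mark TCF/LEF core words, searched as CTTTGAA or CTTTGAT or CTTTGTA or CTTTGTT on both strands (RefSeq, GRCm38.p6; Sp5 at chr2:70474673-70474922 and Axin2 at chr11:108920099-108920348, both plus strand).
Sp5: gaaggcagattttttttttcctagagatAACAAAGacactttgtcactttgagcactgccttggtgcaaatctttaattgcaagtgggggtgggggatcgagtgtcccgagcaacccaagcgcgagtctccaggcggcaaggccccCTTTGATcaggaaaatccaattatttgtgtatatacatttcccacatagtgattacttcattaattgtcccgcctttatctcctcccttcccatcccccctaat
Axin2: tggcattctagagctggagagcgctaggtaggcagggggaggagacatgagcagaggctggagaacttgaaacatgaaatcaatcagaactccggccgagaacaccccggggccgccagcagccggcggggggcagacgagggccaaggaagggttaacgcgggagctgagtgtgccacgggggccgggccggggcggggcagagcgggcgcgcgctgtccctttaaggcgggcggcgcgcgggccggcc
The Sp5 window held 2 core words, CTTTGTT on the minus strand with its leftmost base 222 bases before the start, and CTTTGAT on the plus strand 104 bases before it. The Axin2 window held 0 of these words. Of 32851 windows of the same length, 14.8% held at least 1 of the words and 1.43% held 2 or more. Windows were searched for 7 of the 10 genes: Apc was left out of the search, and Lrp5 and Lrp6 had no window to search. Of the 13 windows of these 7 genes, 3 held a core word, those of Sp5, of 1 start of Lef1 and of 1 start of Tcf7l2. These matches describe letters in short windows, and were not tested as binding sites.

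Axin2 (chromosome 11, 108920349 to 108950783, plus strand) had 121 and 110 CPM in wild type samples 1 and 2, 119 CPM in the library labelled heterozygote, and 95.6 and 82.7 CPM in the EpoR-null samples. The highest EpoR-null value lay under the lowest control value. The log2 fold change was -0.39 ± 0.14 (standard error) with p = 0.00735 and an FDR of 0.0805 (edgeR exact test), which did not pass the thresholds. With length and GC offsets it was -0.38 (FDR 0.392, edgeR likelihood-ratio test), and without the library labelled heterozygote it was -0.37 (FDR 0.397, edgeR exact test). Its transcript is 4.26 kb long, and the trend of EpoR-null over controls at its length and GC content was -0.01 on the log2 scale. DESeq2 gave Axin2 an adjusted p of 0.0168 with an unadjusted p of 0.00191, and the exact test without EpoR-null sample 1 took it past both thresholds (-0.49, FDR 0.000611). In that fit the remaining EpoR-null library was assumed to vary like the controls, and the calls over all genes rose from 606 to 2296.

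Sp5 (chromosome 2, 70474923 to 70477729, plus strand) had the lowest CPM of the 10 genes and the EpoR-null samples that lay farthest apart on the log2 scale. The controls had 7.85, 7.84 and 6.44 CPM. EpoR-null sample 1 had 3.33 CPM (66 reads) and EpoR-null sample 2 had 13.6 CPM (385 reads), so that one was below and the other above every control. The log2 fold change over both was 0.20 ± 0.60 (standard error; FDR 0.896, edgeR exact test). Left with EpoR-null sample 2 alone it was 0.88 (FDR 0.0283), and with EpoR-null sample 1 alone it was -1.15 (FDR 0.0453), neither with p below 0.001. In each of these fits the EpoR-null group was 1 library, assumed to vary like the controls, whose spread alone set the FDR.

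The 4 TCF/LEF factors were expressed side by side. LEF1 and TCF7 are known mainly as activators in the presence of β-catenin, TCF7L1 mainly as a repressor, and TCF7L2 as able to do both. Lef1 (chromosome 3, 131110471 to 131224356, plus strand) had 30.9, 33.8 and 24.1 CPM in the controls and 20.4 and 30.5 CPM in the EpoR-null samples. Tcf7 (chromosome 11, 52252371 to 52283014, minus strand) had 41.8, 44.6 and 36.7 CPM in the controls and 29.9 and 46.7 CPM in the EpoR-null samples. Both had their lowest value in EpoR-null sample 1, whereas EpoR-null sample 2 lay between the controls for Lef1 and above every control for Tcf7. Lef1 (log2 fold change -0.22, standard error 0.28, FDR 0.716) and Tcf7 (-0.10, standard error 0.25, FDR 0.882) passed no threshold in the exact test of edgeR. In the annotation used for positions, an antisense gene on the opposite strand covers 13.7% of the exon bases of Lef1.

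Tcf7l1 (chromosome 6, 72626378 to 72789254, minus strand) had 42.5, 46.8 and 41.8 CPM in the controls and 44.3 and 52.4 CPM in the EpoR-null samples. Its log2 fold change of 0.15 (standard error 0.17, FDR 0.678) stayed within the spread between samples. Tcf7l2 (chromosome 19, 55741820 to 55933654, plus strand) varied least of the 4, with 36.3, 36.7 and 39.9 CPM in the controls and 38.3 and 34.4 CPM in the EpoR-null samples (log2 fold change -0.05, standard error 0.17, FDR 0.918). The 95% intervals of these fold changes, 0.879 to 1.39 times the controls for Tcf7l1 and 0.768 to 1.21 times for Tcf7l2, set how large an undetected change could be.

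Per kilobase of transcript, the 4 factors summed to 45.9 to 52.5 CPM per kb in the controls and to 42.6 and 53.7 CPM per kb in the EpoR-null samples. Tcf7 made up 32.3% to 34.5% of that sum in the controls and Tcf7l1 28.5% to 29.9%. In EpoR-null sample 1 the order of these factors was reversed, with 28.4% for Tcf7 and 34.2% for Tcf7l1, while in EpoR-null sample 2 Tcf7 (35.2%) was again above Tcf7l1 (32.1%). The share of Tcf7l1 was higher in both EpoR-null samples than in every control. This share was not tested, and the CPM of Tcf7l1 itself overlapped between the groups. Among all tested genes, 43.3% had groups that did not overlap in CPM. The share of Lef1 was 14.4% to 17.6% in the controls and 13.1% and 15.5% in the EpoR-null samples, and that of Tcf7l2 was 18.8% to 23.4% against 24.2% and 17.2%.

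On the same scale, levels ordered the 10 genes as follows. Ctnnb1 had a median of 366 CPM per kb over the 5 samples, far above Axin2 at 25.9 CPM per kb. Tcf7 (16.9) and Tcf7l1 (14.6 CPM per kb) came next, with ranges that overlapped each other and a highest Tcf7 value of 18.9 just under the lowest Axin2 value of 19.4. Lrp6 (11.5), Tcf7l2 (9.87), Apc (9.67) and Lef1 (8.33 CPM per kb) followed, with ranges that overlapped from each to the next, while the highest Lrp6 value (13.3) lay under the lowest Tcf7l1 value (13.7). Lrp5 (4.88) and Sp5 (3.73 CPM per kb) were lowest, and their ranges overlapped too. The order of the middle genes by mean differed between the groups. In the controls Lrp6 averaged 12.6 (SD 0.97), Apc 10.3 (SD 0.58), Tcf7l2 10.1 (SD 0.53) and Lef1 8.1 CPM per kb (SD 1.4). In the EpoR-null samples Tcf7l2 averaged 9.78 (SD 0.75), Lrp6 7.87 (SD 1.3), Lef1 6.96 (SD 1.9) and Apc 5.88 CPM per kb (SD 1.7). Apc and Tcf7l2 overlapped in the controls, as did Lrp6, Lef1 and Apc in the EpoR-null samples, so their order there was not resolved. All these values use the longest transcript in a later annotation than the one behind the counts.

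Other markers differed between the EpoR-null samples along with Sp5, Lef1 and Tcf7. The 9 markers of the caudal end and tail bud, led by Wnt3a and including Cdx2, T and Nkx1-2, summed to 31.5 to 43.3 CPM in the controls, 19.6 CPM in EpoR-null sample 1 and 71.3 CPM in EpoR-null sample 2. The 6 markers of newborn neurons, led by Tubb3, ran the other way, with 309 to 513 CPM in the controls, 1016 CPM in EpoR-null sample 1 and 233 CPM in EpoR-null sample 2. In both sums the EpoR-null samples lay on opposite sides of the controls, as for Sp5. Wnt3a, with 18.6 to 23.2 CPM in the controls, was the largest part of the caudal sum. Not every marker followed its sum. T had 6.77 CPM in EpoR-null sample 1, within the controls (0.519 to 10.9 CPM). Both EpoR-null values of Tbx6, and of Neurog2 among the neuron markers, lay within the controls. Of the caudal and newborn neuron markers 0 passed both thresholds in either direction. Among the caudal markers, 3 (Tbx6, Fgf8 and Msgn1) were too low to be tested, and 6 of the 9 are also on the wider list of Wnt genes used below. The 8 somite markers, led by Meox1, summed to 137 and 45.2 CPM in EpoR-null samples 1 and 2 and 10.7 to 67.2 CPM in the controls. The 6 neural crest markers, led by Ets1, summed to 167 and 110 CPM against 36.1 to 147 CPM. The 7 surface ectoderm markers, led by Krt8, summed to 15.0 and 29.9 CPM against 5.92 to 24.0 CPM, and 0 markers of these 3 lists passed the thresholds. The part of any of these cells in the levels of the 10 genes was not tested. The lowest somite, neural crest and surface ectoderm sums were all in the library labelled heterozygote.

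**Figure D4:**
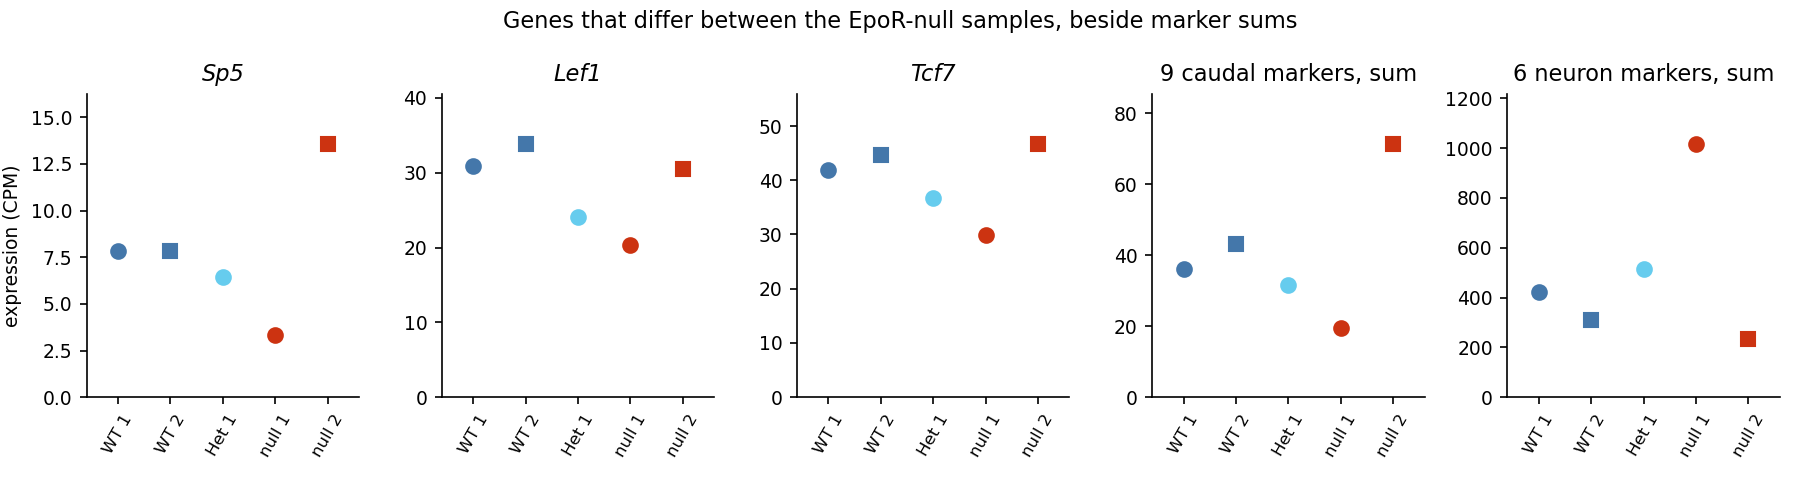
Expression in CPM (linear axes from 0) of Sp5, Lef1 and Tcf7 and the summed CPM of 9 caudal and 6 newborn neuron markers in each sample; colours and shapes are as in the plot of the 10 genes. EpoR-null sample 1 (red circle) is lowest for Sp5, Lef1, Tcf7 and the caudal sum and highest for the neuron sum, and EpoR-null sample 2 (red square) is highest for Sp5, Tcf7 and the caudal sum.

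Outside the 10 genes, a wider Wnt list had 128 genes found in the tables, 102 of them tested. In the exact test of edgeR, 9 of the 102 were lower past both thresholds and 0 were higher. Of all tested genes, 3.84% were lower and 0.929% higher past the same thresholds. With the FDR threshold alone, 11 of the 102 were lower and 0 higher, beside 5.49% and 1.81% of all tested genes. At an unadjusted p under 0.05, 20 of the 102 were lower and 2 higher, beside 2515 of all 12703 tested genes in either direction. The median of the 102 genes' log2 fold changes was -0.07. The 9 genes fell in the cytoplasmic transducers (4 of 26 tested) and the nuclear cofactors (5 of 22), and the plot by role shows none among the 9 ligands, 3 genes of ligand release, 10 receptors, 5 genes of receptor turnover, 9 secreted inhibitors and 18 targets that were tested.

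Tnks, which encodes a tankyrase that promotes AXIN degradation, fell from 86.8 CPM (SD 7.90, n = 3) to 30.5 CPM (SD 16.1, n = 2), a log2 difference of -1.51 ± 0.34 (standard error; FDR 0.00170, edgeR exact test). Usp34, a deubiquitinase of AXIN, fell from 128 to 55.5 CPM (-1.21, FDR 6.05e-06 in the same test). Dvl3, 1 of 3 Dishevelled proteins that relay the receptor signal, fell from 70.5 to 40.1 CPM (-0.82, FDR 0.00912), whereas Dvl1 (-0.07, FDR 0.871) and Dvl2 (-0.07, FDR 0.900) passed no threshold. Amer1, listed as Fam123b and an APC-binding partner, fell from 51.5 to 31.6 CPM (-0.70, FDR 0.00557). The gene of this role with the highest control level, Tnks2, had 417 CPM in controls and 320 CPM in EpoR-null samples (-0.38, FDR 0.123).

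Among nuclear cofactors, Bcl9, the adaptor that joins β-catenin to Pygopus, fell from 98.1 to 61.9 CPM (log2 fold change -0.67; FDR 0.00239, edgeR exact test). The histone acetyltransferase genes Crebbp (-0.91, FDR 0.000799) and Ep300 (-0.83, FDR 5.25e-07) fell together, Ep300 from 129 CPM (SD 5.25, n = 3) to 72.5 CPM (SD 4.21, n = 2). Tbl1x, a TBL1 family protein of the corepressor and β-catenin complexes, fell from 112 to 51.1 CPM (-1.14, FDR 2.94e-11). Hipk2, a kinase that phosphorylates TCF factors among other targets, fell from 44.9 to 10.6 CPM (-2.08, FDR 4.78e-12). Ctbp1, the corepressor gene with the highest control level in this role, had 337 CPM in controls and 356 CPM in EpoR-null samples (0.08, FDR 0.812). Of the 9 genes, 5 remained past both thresholds with length and GC offsets by edgeR's likelihood-ratio test. These, with their log2 fold changes after offsets, were Tnks (-1.13), Usp34 (-0.62), Dvl3 (-0.85), Tbl1x (-0.93) and Hipk2 (-1.79). With offsets Bcl9 (-0.46), Crebbp (-0.45) and Ep300 (-0.39) did not pass, and Fam123b had no transcript under its symbol. Without the library labelled heterozygote 6 of the 9 passed in the exact test, all but Bcl9, Dvl3 and Fam123b.

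Ligands, their release, receptors, receptor turnover and secreted inhibitors, which act at or before Lrp5 and Lrp6, gave 0 calls, beside 4.77% of all tested genes, a share at which few calls would fall in lists this short. At an unadjusted p under 0.05, 3 of 10 receptors and 1 of 5 genes of receptor turnover were lower, beside 2515 of all 12703 tested genes in either direction. The leading ligand in controls was Wnt5a, with 27.5 CPM in controls and 29.4 CPM in EpoR-null samples (log2 fold change 0.09; FDR 0.886, edgeR exact test), and the leading gene of ligand release was Wls (0.08, FDR 0.827). Fzd3, the receptor with the highest control CPM, had 295 and 214 CPM (-0.46, FDR 0.186), with no overlap between the groups. By the same measure Sfrp1 led the secreted inhibitors (-0.30, FDR 0.535), and Lgr4, an R-spondin receptor, led receptor turnover (-0.38, FDR 0.449). Ccnd2 (cyclin D2), which led the targets, passed the FDR threshold but not p below 0.001 (-0.67, p = 0.00103, FDR 0.0214 in the exact test of edgeR).

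**Figure D5:**
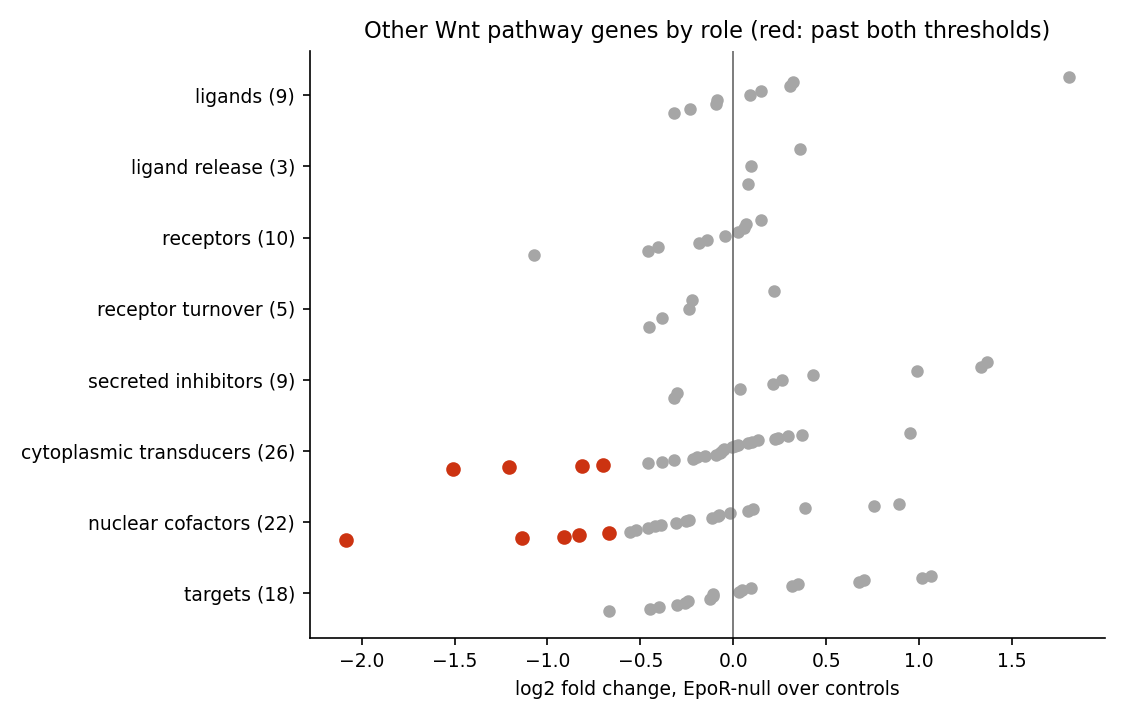
Log2 fold change of EpoR-null over controls for 102 tested genes of the wider Wnt list, 1 point a gene, by role with the number tested in parentheses; red points passed both thresholds in the exact test. The 9 red points are all lower in EpoR-null samples and lie among cytoplasmic transducers and nuclear cofactors.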

How the data were processed

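The authors trimmed the polyA RNA-seq reads with Trimmomatic 0.32, aligned them with TopHat2 2.1.0 and counted reads per gene with HTSeq 0.6.1, and deposited 1 table of raw counts per sample. Per the processing notes of the submitters the genome build was mm9, while the methods of the study, which also cover human cells, name a human build. The counting mode, strand setting and gene annotation are not given in the sources used here. HTSeq leaves out reads that align to several places or overlap several genes. The 5 summary lines at the end of each table were not used: reads outside genes were 8.12% to 11.0%, and ambiguous reads 1.85% to 2.31%, of uniquely aligned reads.

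Groups and replicate numbers came from the sample titles. Testing used R 4.3.3 with edgeR 4.0.16 on genes that exceeded 1 CPM in 2 or more samples (TMM and exactTest, as the study names, with estimateDisp), EpoR-null against all 3 controls, with Benjamini-Hochberg adjustment over all 12703 genes. Standard errors were computed from the negative binomial model at each gene's tagwise dispersion, and the 95% intervals are normal intervals built on them. Differences within a replicate number were made with 0.5 added to the CPM. For number 1 the control was the mean of wild type sample 1 and the heterozygote, and for number 2 it was wild type sample 2. Per-length levels, positions and the offsets (loess, span 0.5, on length and GC content) used the longest transcript of GENCODE M21 on GRCm38, matched by symbol for 90.7% of tested genes. No coordinates were carried over from mm9. The tests were also run on simulated counts with known changes, drawn from the fitted dispersions. Those counts held no length trend, so that run does not bear on the trend found here.

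The 10 genes and the lists were chosen with earlier results of these data known. Named outside them are Epor, every gene of the wider Wnt and marker lists past both thresholds, and in each role or list the gene with the highest level. Other genes named with values (Dvl1, Dvl2 and those among the closing observations) were chosen after their values were seen. No pair of libraries agreed within sampling noise (lowest chi-square per degree of freedom 12.0). Nothing says that replicates came from separate litters. The p-values weigh the difference between groups against the spread within groups of these 5 samples. In the exact test, each gene's dispersion was drawn toward the trend over all tested genes. Alternatives were the quasi-likelihood and likelihood-ratio tests of edgeR, DESeq2 1.42.0, a replicate block, other scalings, filters and dispersions, left-out samples, thinned counts and the offsets.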

Additional observations from a re-analysis of the deposited data

How the results depend on the processing

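The count of 2 of the 10 genes past both thresholds was also found with the likelihood-ratio test, DESeq2, RLE factors, library size only, either filter, thinned counts and another squeezing of the dispersions, the last chosen after seeing the data. It was 0 with the quasi-likelihood F-test of edgeR (3 of the 10 genes at an unadjusted p under 0.05; 0 of all 12703 genes, with 3052 at an unadjusted p under 0.05), 0 with a common dispersion (2 at an unadjusted p under 0.05), 0 in the quasi-likelihood F-test with the heterozygote as its own group (3), where the test alone already gave 0, and 0 with length and GC offsets in the likelihood-ratio test (1), in the quasi-likelihood F-test (2) and in that test with a replicate block (2). It was 1 (Lrp6) with upper quartile factors. Over all tested genes, 1310 had an unadjusted p under 0.05 with a common dispersion and 1716 with the heterozygote as its own group. With offsets these were 868, 1098 and 1100 of 11525 genes, in the order above. Left-out samples gave 0 (without wild type sample 1 or the heterozygote) to 3 (without EpoR-null sample 1, with Axin2). At FDR below 0.05 alone the count was 0 in the same fits other than upper quartile, and 0 to 4 with samples left out.

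A replicate block on the number made the quasi-likelihood F-test of edgeR give 1 gene past both thresholds (Lrp6, log2 fold change -0.65, FDR 0.0410), and Apc had an FDR of 0.0489 without p below 0.001. The samples share only a number: across genes, the differences between replicates 2 and 1 correlated at a Pearson's r of 0.43 between wild type and EpoR-null samples.

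Of the wider Wnt list, 9 genes became 0 with the quasi-likelihood F-test, and in that test 4 with the block and 0 with the heterozygote set apart. It was 5 with offsets in the likelihood-ratio test, and 0 with offsets in the quasi-likelihood F-test without and with the block. Left-out samples gave 4 (without wild type sample 1) to 23 (without EpoR-null sample 2), with 21 without EpoR-null sample 1. Of these 21 and 23 genes, 3 and 5 were higher in EpoR-null samples, as were 3 of 7 with a common dispersion.

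Directions changed for genes that passed no threshold. Sp5 was -0.22 with the block, -0.11 with offsets in both tests and -0.45 with offsets and block, and ran from -1.15 to 0.88 with samples left out. Offsets gave -0.0054 and -0.0061 for Tcf7l1 and -0.018 with the block, and 0.21, 0.21 and 0.12 for Lrp5. Tcf7l2 was 0.015 with upper quartile factors, and with samples left out it ran from -0.13 to 0.025, Lef1 from -0.54 to 0.038 and Tcf7 from -0.46 to 0.18. The cause of these changes was not tested. The 606 calls over all genes became 1028 with DESeq2, 257 with a common dispersion, 351 with the added squeezing, 149 with offsets in the likelihood-ratio test, and 115 to 2296 with samples left out. In the quasi-likelihood F-test, which gave 0, adding the block gave 291 and setting the heterozygote apart gave 0 (1716 at an unadjusted p under 0.05). Upper quartile factors gave 357 lower and 250 higher calls against 488 and 118 with TMM, and moved the median log2 fold change from 0.06 to 0.12. Sp5, with 66 reads in 1 sample, is the gene most limited by depth.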

Other observations

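Further Wnt genes, chosen after their values were seen, also lay on opposite sides of the controls in the EpoR-null samples. How many of all tested genes did so was not counted, so the pattern is not shown to be particular to Wnt genes. Of the genes named here that were tested, 0 passed a threshold in the exact test of edgeR. Wnt7b, a ligand gene, had 1.48 to 3.42 CPM in the controls, 15.5 CPM in EpoR-null sample 1 and 1.34 CPM in EpoR-null sample 2. Dact3, an inhibitor of Dishevelled, had 4.19 to 6.69 CPM in the controls, then 18.03 and 2.99 CPM. The receptor gene Fzd9 went the other way, with 15.9 to 21.3 CPM in the controls, 9.60 CPM in EpoR-null sample 1 and 28.8 CPM in EpoR-null sample 2, as did Wnt3a with 18.6 to 23.2, 9.65 and 25.0 CPM. Cdx2, a caudal homeobox gene and Wnt target, had 1.41 to 3.02 CPM in the controls, 0.152 CPM in EpoR-null sample 1 (3 reads) and 10.04 CPM in EpoR-null sample 2. Genes known from the boundary of midbrain and hindbrain did not share one level. Fgf8, also among the caudal markers, and En2 were at most 0.247 and 0.141 CPM in any library. En1 had 3.99 CPM in EpoR-null sample 1 (79 reads) and 0.0352 CPM in EpoR-null sample 2. Fgf8, En2 and En1 were too low to be tested. Across the libraries Gbx2 had 21.2 to 36.0 CPM and Wnt1 16.2 to 31.5 CPM.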
